A study of Mus musculus with 6 samples.

Results

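The interferon response genes described here are 41 genes that cells switch on, or raise, after interferon, given by symbol. A gene was measured where at least 1 probe set of the array carried its symbol and no other, and where several did, the probe set with the highest mean over the 6 arrays stood for the gene. By that rule 39 of the 41 genes were measured, among 18194 genes in all. Isg15, the ubiquitin-like protein after which the group of interferon-stimulated genes is often named, was left out because its 1 probe set carries several symbols, and Ifi44, a cytoplasmic interferon-induced protein, had no probe set under its symbol.

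Interferons are secreted proteins that warn cells of infection. Type I interferons bind the receptor chains Ifnar1 and Ifnar2, whose kinases Jak1 and Tyk2 activate STAT proteins. Stat2 pairs with another STAT protein and with Irf9 to form a complex that binds the interferon-stimulated response element in promoters, whereas interferon gamma acts mainly through the gamma-activated sequence. The induced proteins sense foreign nucleic acid, block steps of viral growth, attack vacuoles that hold parasites and prepare peptides for display. Haematopoietic stem cells are known to keep some of these genes on without infection, and interferon can drive such cells out of rest.

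The study sorted stem and progenitor cells from adult mouse bone marrow and measured their RNA on Affymetrix arrays, with the stated aim of finding what differs between mutant and wild-type progenitors. The 3 groups compared were all negative for lineage markers (LIN-) and positive for SCA1 and KIT, with 2 arrays each. E2A-KO LMPP are lymphoid-primed multipotent progenitors with high FLT3 from mice lacking E2A on a C57bl/6 background, WT LMPP are the same FLT3hi fraction from C57bl/6 mice, and WT LSK FLT3- are the FLT3-negative fraction from C57bl/6 mice, which holds the stem cells. E2A is the protein product of Tcf3, a basic helix-loop-helix factor needed for B lymphocyte development (the labels restrict the knockout to no cell type). Nothing in the labels ties the arrays of a group to different animals or sorts, and the p-values therefore reflect only the spread between arrays, which may be technical. A free-text description calls every sample WT LMPP, so the groups were taken from the sample titles and sources.

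All values are log2 of the deposited RMA intensity, and differences and standard errors (SE) are on the same log2 scale. A gene was called at an adjusted p under 0.05 in a limma fit of all 6 arrays and all 18194 genes. The array medians over all probe sets were 4.04 on both E2A-KO LMPP arrays, 4.01 on both WT LMPP arrays and 3.91 and 3.90 on the WT LSK FLT3- arrays, and arrays of 1 group correlated at r between 0.989 and 0.996. The upper quartiles were 5.78 to 5.82 on the LMPP arrays of both genotypes, against 6.13 and 6.15 on the WT LSK FLT3- arrays. The lower quartiles were 3.19 to 3.22, against 3.04. Values were thus spread more widely on the WT LSK FLT3- arrays, which bears on both comparisons with that group. Levels of different genes are not comparable on such arrays, since each probe set has its own affinity. Tcf3 had 3 probe sets, and none passed the threshold in E2A-KO LMPP against WT LMPP (adjusted p between 0.425 and 0.869). The labels do not place them relative to the deletion, and they therefore check nothing about the genotype. Of the gate's genes, neither Flt3 nor Kit was called in E2A-KO LMPP against WT LMPP. Against WT LSK FLT3-, Flt3 rose by 1.92 in E2A-KO LMPP and by 1.99 in WT LMPP, and Kit, a marker of all 3 gates, fell by 1.56 in E2A-KO LMPP and by 1.24 in WT LMPP.

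RefSeq (GRCm38.p6) gave a promoter for 32 of the 41 genes, and the 250 bases before the start were searched for the response element core (GAAA, any 2 bases, GAAA), read on both strands and so also as TTTC, any 2 bases, TTTC, and for the gamma-activated core TTCNNNGAA, which is its own reverse complement. The response element core was present in 13 of the 32 (40.6%), against 3.46% of 27025 promoters of all genes. The gamma-activated core was present in 7 of the 32 (21.9%), against 8.13% of all promoters, and 3 members held both (Oas1a, Bst2 and Igtp). In Bst2 the 2 cores overlap. A match is a description of the letters and not a proven site.

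Of the 7 members that fell in E2A-KO LMPP against WT LMPP, 6 had a promoter in the table and 3 of these held the response element core, namely Ifit1, Ifit3 and Rsad2. Of the 24 measured members with a promoter that were not called, 9 (37.5%) also held it. The windows of Ifit1, Ifit3 and Rsad2 are shown because these are the called genes that hold the core, with the cores in capitals and the strand that is transcribed, 5′ to 3′. Ifit1 (chr19:34640760-34640838, plus strand) and Ifit3 (chr19:34583348-34583441, plus strand) each held 2 cores, and Rsad2 (chr12:26456538-26456597, minus strand) held 1.
Ifit1: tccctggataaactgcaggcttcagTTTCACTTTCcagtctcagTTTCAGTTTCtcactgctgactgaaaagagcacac
Ifit3: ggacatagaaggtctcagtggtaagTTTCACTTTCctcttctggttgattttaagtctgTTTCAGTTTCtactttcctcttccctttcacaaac
Rsad2: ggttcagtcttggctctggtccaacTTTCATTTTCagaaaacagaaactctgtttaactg
The window of Ifit1 lay 129 to 51 bases before its start, that of Ifit3 181 to 88 bases and that of Rsad2 145 to 86 bases.

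The genotype comparison answers the study's own question, what differs between E2A-KO and WT LMPP. In it 7 of the 39 measured members (17.9%) fell and none rose, where 0.995% of all 18194 genes fell and 0.379% rose. The 7 were Ifit1, Ifi27l2a, Ifit2, Ifit3, Rsad2, Oasl2 and Irf9, each 1.79 to 2.00 times lower in E2A-KO LMPP. Of the 39, 36 had a difference below 0, against 52.8% of all genes. In 31 members both E2A-KO LMPP arrays lay below both WT LMPP arrays (22.8% of all genes), and in 2, Psmb8 and Lgals3bp, both lay above (18.8% of all genes). The median difference was -0.44 over the members, whose range was -1.0003 to 0.31, and -0.02 over all genes. Among the brighter 60% of genes, 9 of 38 members fell and none rose (2.27% and 0.797% of those genes), the further 2 being Stat2 and Rtp4. At an unadjusted p under 0.05 there were 24 members lower (8.76% of all genes) and 1 higher, Psmb8 (5.89% of all genes). In sorted bulk RNA, fewer cells that express a gene and less RNA per cell cannot be told apart.

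**Figure D1:**
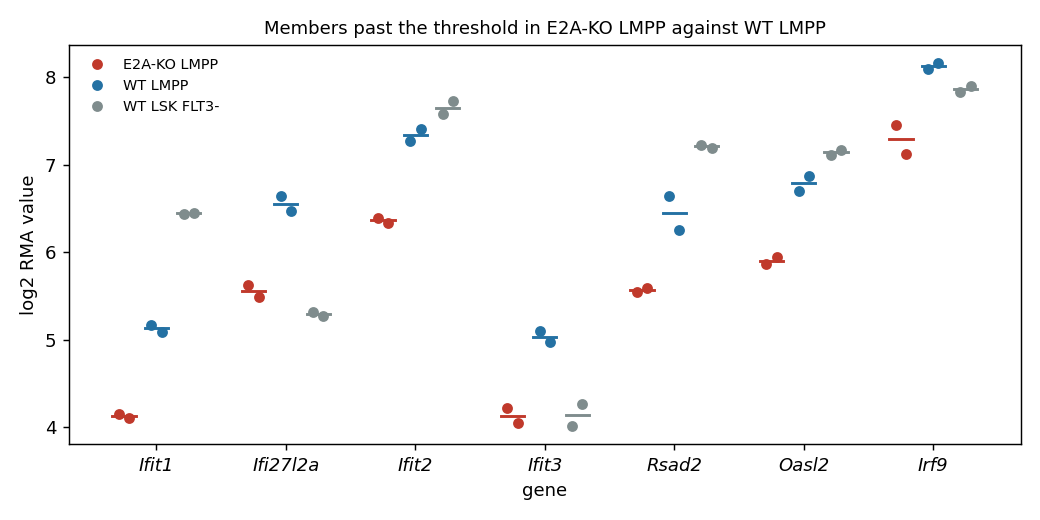
Log2 RMA value (vertical axis) of the 7 members past the threshold in E2A-KO LMPP against WT LMPP (horizontal axis), on each array (points) with the group mean (line), for E2A-KO LMPP, WT LMPP and WT LSK FLT3-. Both E2A-KO LMPP points lie below both WT LMPP points in each of the 7 genes, and Ifi27l2a, Ifit3 and Irf9 are the genes whose WT LSK FLT3- points also lie below WT LMPP.

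The transcription factors come first. Irf9, the DNA-binding subunit of the complex that reads the response element, had 7.46 and 7.12 in E2A-KO LMPP, against 8.10 and 8.16 in WT LMPP. It fell by 0.84 (SE 0.15, adjusted p = 0.0311), and the WT LSK FLT3- arrays, at 7.82 and 7.90, lay between the other groups. Its call was lost with the replicate number as a block (adjusted p = 0.0525) and after quantile normalization (adjusted p = 0.0592). It was also lost with only the 4 arrays of the comparison (adjusted p = 0.115). Of the fits that left out 1 array, only the one without E2A-KO LMPP array 1 kept the call. Stat2, the partner of Irf9 in that complex, had 4.87 and 4.997 in E2A-KO LMPP, against 5.69 and 5.49 in WT LMPP and 5.30 and 5.24 in WT LSK FLT3-. The groups did not overlap, with a difference of -0.66 (SE 0.14), but the adjusted p of 0.0606 missed the threshold. Irf7, which amplifies production of type I interferon, had 5.16 and 5.31 in E2A-KO LMPP and 5.49 and 5.59 in WT LMPP, with 5.14 and 5.44 in WT LSK FLT3-, a genotype difference of -0.30 (adjusted p = 0.389). Irf1, a factor that responds chiefly to interferon gamma, had 9.18 and 8.92 in E2A-KO LMPP and 9.36 and 9.23 in WT LMPP, with 9.02 and 9.07 in WT LSK FLT3-, a genotype difference of -0.25 (adjusted p = 0.46). All 4 factors thus had both E2A-KO LMPP arrays below both WT LMPP arrays, and 1 of the 4 passed the test.

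Among the antiviral effectors, 4 of 11 measured members fell and none rose, and all 11 had a difference below 0. The IFIT proteins bind viral RNA and hold back its translation. Ifit1, which recognises RNA whose cap lacks the methyl mark of host messengers, had 4.15 and 4.10 in E2A-KO LMPP, against 5.16 and 5.09 in WT LMPP. It fell by 1.00 (SE 0.12, 2.00-fold lower, adjusted p = 0.0062). The E2A-KO LMPP values sat near those arrays' medians over all probe sets, 4.04 on each, where RMA values of dim probe sets are compressed. Ifit2, a neighbour in the same gene cluster, had 6.39 and 6.34 in E2A-KO LMPP, against 7.26 and 7.41 in WT LMPP, and it fell by 0.97 (SE 0.13, adjusted p = 0.0103). Ifit3, which binds and stabilises Ifit1 in human cells, had 4.21 and 4.05 in E2A-KO LMPP, against 5.09 and 4.97 in WT LMPP, and it fell by 0.90 (adjusted p = 0.0218). Its E2A-KO LMPP values also sat at the array medians, and its call was lost with only the 4 arrays of the comparison (adjusted p = 0.07). Leaving out either WT LSK FLT3- array gave that same result. The call was also lost without any 1 of the LMPP arrays, with differences of -0.98 to -0.82. In all 3 IFIT genes the genotypes were further apart than the arrays of either genotype.

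Rsad2 (viperin), an enzyme that makes a chain-terminating nucleotide against viral polymerases, had 5.54 and 5.59 in E2A-KO LMPP, against 6.64 and 6.26 in WT LMPP. It fell by 0.88 (SE 0.15, adjusted p = 0.0299), with the WT LMPP arrays further apart than the E2A-KO ones. Rsad2 has other probe sets that are dimmer, and they did not show a common direction: their differences were -0.64 (adjusted p = 0.171) and 0.43 (adjusted p = 0.348), and the mean of all its probe sets differed by -0.36 (adjusted p = 0.182). Cmpk2, a mitochondrial nucleotide kinase whose gene lies beside Rsad2 on chromosome 12 with no protein-coding gene between, had 5.52 and 5.48 in E2A-KO LMPP, against 6.16 and 6.02 in WT LMPP. The genotypes did not overlap, and the difference of -0.59 missed the threshold (adjusted p = 0.104). None of the other effectors passed. Bst2 (tetherin, which holds budding virus on the cell), Ifitm3 (which blocks entry through endosomes), Trim30a, Samd9l, Mx1 and Isg20 had differences between -0.22 and -0.51. Samd9l, a cytoplasmic antiviral factor, had 8.25 and 8.37 in E2A-KO LMPP, against 8.47 and 8.59 in WT LMPP, without overlap. Isg20, an exonuclease, had 6.05 and 6.51 in E2A-KO LMPP, against 6.60 and 6.50 in WT LMPP, so that its groups overlapped. Mx1, which common inbred strains carry in a form without antiviral function, was dim, at 3.27 and 3.90 in E2A-KO LMPP and 4.08 and 4.11 in WT LMPP.

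The nucleic acid sensors and oligoadenylate synthetases gave 1 call among 8 measured members. Oasl2, an oligoadenylate synthetase-like protein, had 5.86 and 5.94 in E2A-KO LMPP, against 6.70 and 6.87 in WT LMPP. It fell by 0.88 (SE 0.13, adjusted p = 0.0152), and its WT LSK FLT3- arrays were higher still, at 7.11 and 7.17. Its neighbour Oasl1, known in mice to restrain translation of Irf7, averaged 5.06 ± 0.18 in E2A-KO LMPP and 5.44 ± 0.14 in WT LMPP (SD, n = 2 each), a difference of -0.38 (adjusted p = 0.271). Oas1a, which makes the messenger that activates RNase L, averaged 7.35 ± 0.13 in E2A-KO LMPP and 7.91 ± 0.14 in WT LMPP (SD, n = 2 each; difference -0.56, adjusted p = 0.115). Oas3 and Oas2, 2 further synthetases that are neighbours on chromosome 5, differed by -0.58 (adjusted p = 0.298) and -0.16 (adjusted p = 0.679). Ifih1 (MDA5, the cytoplasmic sensor of long double-stranded RNA) had 7.74 and 7.85 in E2A-KO LMPP, against 8.07 and 8.30 in WT LMPP, a difference of -0.39 (adjusted p = 0.24). Dhx58 (LGP2), its regulator, differed by -0.38 (adjusted p = 0.205). Zbp1, a sensor of Z-form nucleic acid that can trigger necroptosis, was the sensor whose difference lay above 0, at 0.07 (adjusted p = 0.906), and its groups overlapped.

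Usp18, the protease that removes Isg15 from proteins and damps signalling at Ifnar2, had the largest difference among members that missed the threshold. It had 4.94 and 4.52 in E2A-KO LMPP, against 5.96 and 5.43 in WT LMPP, a difference of -0.97 (SE 0.21, adjusted p = 0.0688). The SD over the 2 arrays was 0.30 in E2A-KO LMPP and 0.38 in WT LMPP, and the groups did not overlap.

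None of the 5 guanosine triphosphatases passed, and all 5 had a difference below 0. Gbp2, a guanylate-binding protein that attacks pathogen vacuoles, had 7.31 and 7.26 in E2A-KO LMPP, against 7.70 and 7.88 in WT LMPP (difference -0.51, adjusted p = 0.129). Irgm1, which protects the cell's own membranes from this attack, averaged 7.22 ± 0.01 in E2A-KO LMPP and 7.78 ± 0.21 in WT LMPP (SD, n = 2 each; difference -0.56, adjusted p = 0.121). Igtp, Ifi47 and Gbp3 differed by -0.44, -0.29 and -0.12.

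None of the 3 antigen processing genes passed. Psmb8, a catalytic subunit of the immunoproteasome, had 9.60 and 9.66 in E2A-KO LMPP, against 9.39 and 9.24 in WT LMPP, a difference of 0.31 (adjusted p = 0.314), which was the highest of the 39 members. Psmb9, the sister subunit, differed by -0.11, and Tap1, the transporter that carries peptides to MHC class I, also by -0.11. These 3 genes are neighbours on chromosome 17 with no protein-coding gene between them, and none passed the threshold in the other comparisons either.

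The remaining members gave 1 call of 7. Ifi27l2a, a small membrane protein that type I interferon induces strongly, had 5.62 and 5.48 in E2A-KO LMPP, against 6.64 and 6.46 in WT LMPP. It fell by 1.00 (SE 0.13, 2.00-fold lower, adjusted p = 0.00952). Lgals3bp, a secreted binding partner of galectin-3, had 7.22 and 7.27 in E2A-KO LMPP and 7.17 and 7.07 in WT LMPP (difference 0.12, adjusted p = 0.747). Parp14 and Parp9, members of the ADP-ribosyltransferase family, differed by -0.60 (adjusted p = 0.105) and -0.18. Rtp4, a chaperone of receptors, differed by -0.62 (adjusted p = 0.076), Ifi35 by -0.28 and Xaf1, an antagonist of the apoptosis inhibitor XIAP, by -0.19.

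**Figure D2:**
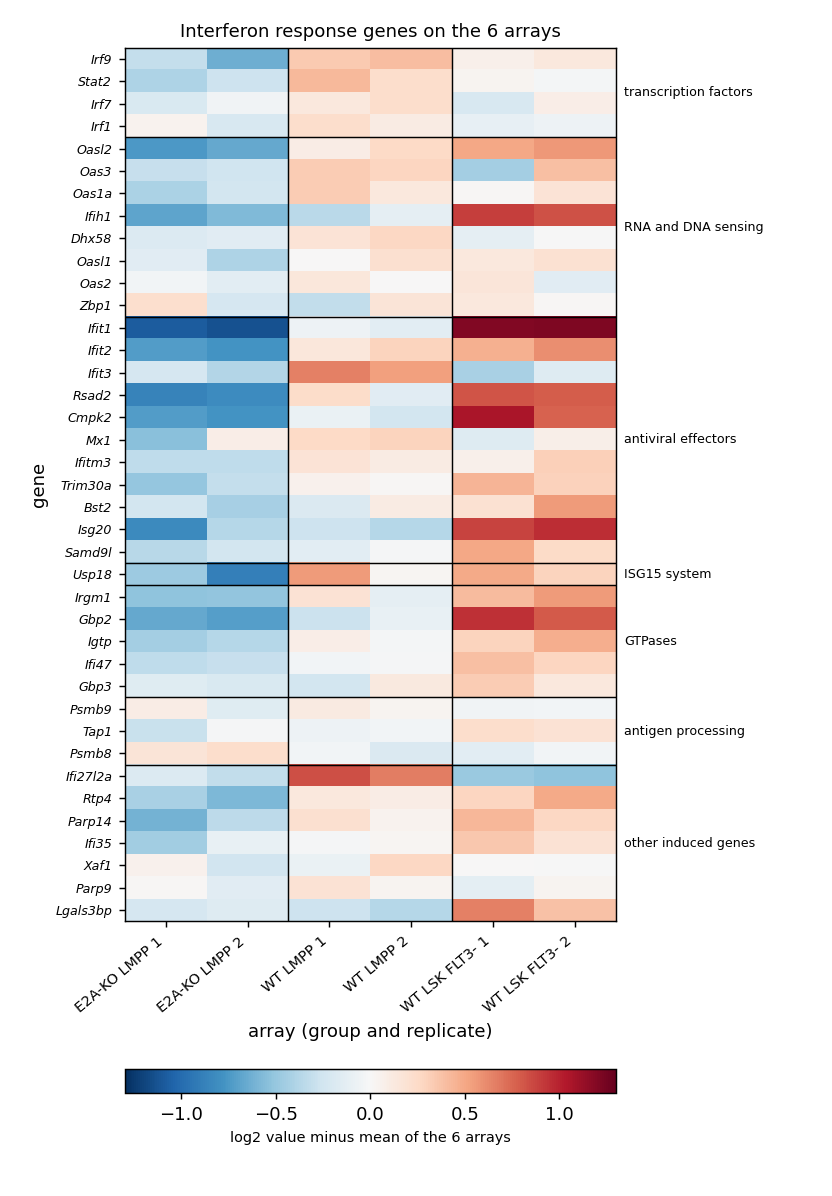
Each row is 1 of the 39 measured members and each column 1 array, and the colour is the log2 RMA value minus that gene's mean over the 6 arrays, with the scale ending at a difference of 1.3 in either direction. The E2A-KO LMPP columns are the lowest group in 33 of the 39 rows, a count for which no share of all genes is given.

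Which arrays decided these calls was examined by leaving out each in turn. The count of members that fell was 3 without E2A-KO LMPP array 1, 1 without E2A-KO LMPP array 2, 4 without WT LMPP array 1 and 5 without WT LMPP array 2, and 2 when either WT LSK FLT3- array, or the whole WT LSK FLT3- group, was left out of the estimate of the spread. Ifit1 was called in all of these fits (adjusted p between 0.00352 and 0.0475 over all alternatives). Over all alternatives the adjusted p reached 0.0672 for Ifit2 and Ifi27l2a, 0.0929 for Oasl2, 0.118 for Ifit3, 0.132 for Irf9 and 0.182 for Rsad2. The median over the members stayed between -0.48 and -0.39 in them.

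Markers of other cell types also differed between the genotypes. Of 10 measured neutrophil genes 7 fell and none rose in E2A-KO LMPP, and their summed linear intensity was 600 to 682 in E2A-KO LMPP, against 2996 to 2999 in WT LMPP and 1648 to 1765 in WT LSK FLT3-. In E2A-KO LMPP 1 of the 10, Lcn2, lay below the array median on both arrays. Ngp, a neutrophil granule protein, had 6.81 and 6.64 in E2A-KO LMPP, against 10.31 and 10.32 in WT LMPP. Of 10 monocyte and macrophage genes 2 fell, with sums of 451 to 501 in E2A-KO LMPP and 688 to 777 in WT LMPP, and Cx3cr1, Cd14 and Vcan lay below the array median in both groups. Of 11 genes of plasmacytoid dendritic cells, the cells known for making most type I interferon, 1 rose (Clec10a) and 1 fell (Ccr9), with sums of 1026 to 1122 in E2A-KO LMPP and 1397 to 1607 in WT LMPP. Bst2, itself a member, is also on this plasmacytoid list, so the sum is not separate from the members. The sums of the conventional dendritic, B cell, plasma cell and stroma lists were also lower in E2A-KO LMPP than in WT LMPP, without overlap. Only the T and NK cell sum and the erythroid and megakaryocyte sum were higher in E2A-KO LMPP, again without overlap. T and NK cell genes summed to 655 to 750 in E2A-KO LMPP, against 468 to 471 in WT LMPP, and 1 of 10 rose (Nkg7). Stroma genes summed to 216 to 225 in E2A-KO LMPP, against 340 to 360 in WT LMPP, and 1 of 8 fell (Pdgfrb). Of 6 plasma cell genes 1 rose (Sdc1), and none of the conventional dendritic, B cell or erythroid and megakaryocyte genes passed. The part of these markers in the members' differences was not tested.

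The ligands of the pathway gave no call between the genotypes. Of 21 listed interferon genes 10 were measured and none passed, the furthest being Ifna5 at -0.38 (adjusted p = 0.328) and Ifnz at 0.28 (adjusted p = 0.449). Most of these genes were dim. Ifnb1, Ifna1, Ifna2, Ifna4, Ifna5, Ifna11, Ifnab and Ifng lay below the array median on all 6 arrays, and Ifna9 on 5. Ifnb1, for example, had 3.55 and 3.86 in E2A-KO LMPP and 3.35 and 3.55 in WT LMPP. The lack of calls therefore says little about the levels of these genes.

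None of the 9 receptor chains and kinases passed either. Ifnar1 had 6.10 and 6.62 in E2A-KO LMPP, against 6.45 and 6.34 in WT LMPP, a difference of -0.03 (SE 0.19, adjusted p = 0.958), and the groups overlapped. Ifnar2 had 7.74 and 7.84 in E2A-KO LMPP, against 8.14 and 8.36 in WT LMPP, without overlap, a difference of -0.46 (SE 0.14, adjusted p = 0.162). Ifngr1 and Ifngr2, the interferon gamma receptor, differed by 0.05 (adjusted p = 0.918) and 0.07 (adjusted p = 0.851). The kinases Jak1 and Tyk2 differed by -0.07 (adjusted p = 0.855) and -0.12 (adjusted p = 0.724), and Il10rb, the shared chain of the interferon lambda receptor, by -0.50 without overlap (adjusted p = 0.15).

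**Figure D3:**
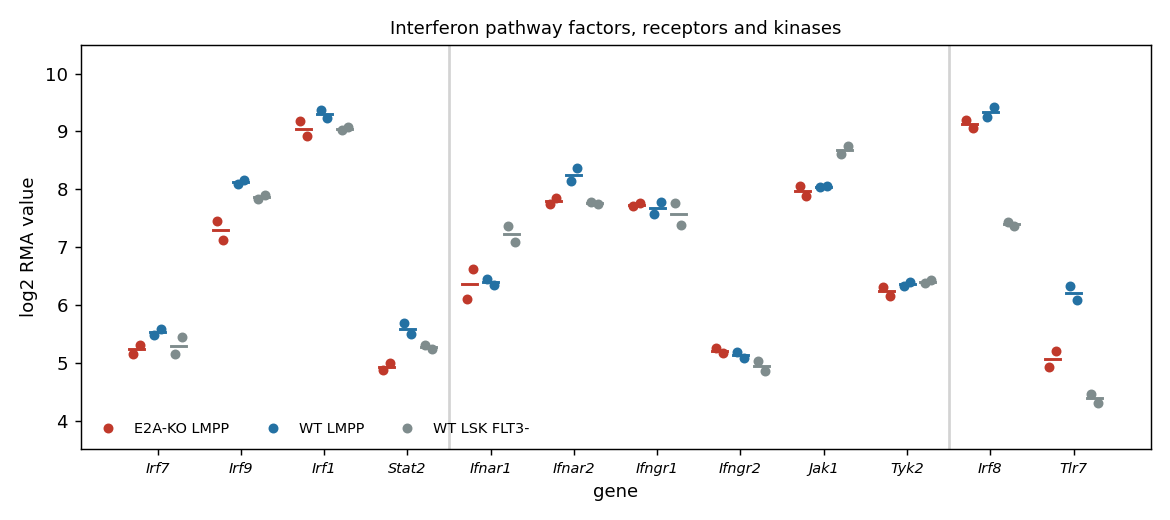
Log2 RMA value (vertical axis) of the 4 measured transcription factors of the group (left), of receptor chains and kinases (middle) and of Irf8 and Tlr7 (right), on each array (points) with the group mean (line). Among the receptors and kinases, the Ifnar2 points of E2A-KO LMPP lie below those of WT LMPP without passing the test (difference -0.46), and Irf8 and Tlr7 stand higher in WT LMPP than in WT LSK FLT3-.

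Of 14 further signal factors and inhibitors none passed, with Irf2, which competes with Irf1 for the same element, nearest at -0.68 (adjusted p = 0.0606). Of 14 further sensing genes 1 fell: Tlr7, the endosomal receptor for single-stranded RNA, had 4.92 and 5.20 in E2A-KO LMPP, against 6.33 and 6.09 in WT LMPP, and fell by 1.15 (adjusted p = 0.00952). Of 54 other interferon-induced genes 5 fell and none rose. Gbp6, another guanylate-binding protein, had 4.48 and 4.58 in E2A-KO LMPP, against 6.18 and 6.20 in WT LMPP. It fell by 1.66 (SE 0.14, adjusted p = 0.00112), more than any of the 39 members. Iigp1, an immunity-related GTPase, fell by 1.10 (adjusted p = 0.0225), Cxcl9, a chemokine, by 0.83 (adjusted p = 0.0255), Slfn2 by 0.79 (adjusted p = 0.0252) and Epsti1 by 0.76 (adjusted p = 0.0286). Over all these lists 6 of 101 measured genes fell and none rose, where 0.995% of all genes fell and 0.379% rose. A difference below 0 was found in 74 of the 101, against 52.8% of all genes. The median was -0.10, beside -0.44 over the 39 members and -0.02 over all genes.

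The second comparison sets WT LMPP against WT LSK FLT3-, the step at which FLT3 appears. Here 9 of the 39 members (23.1%) fell, where 23.7% of all genes fell, and 2 (5.13%) rose, where 10.4% of all genes rose. The members' shares were thus near or below those of all genes, and the median difference was -0.22 (range -1.32 to 1.25) against -0.01 over all genes. Both WT LMPP arrays lay below both WT LSK FLT3- arrays in 20 members (39.3% of all genes) and above them in 9 (32.4% of all genes). Most members are brighter than the typical gene, and among the brighter 60% of genes 40.8% fell against 12 of 38 members, with a median of -0.29 over those genes and -0.24 over the members. The balance depended on scaling: after quantile normalization 5 members fell and 7 rose, with a median of 0.074.

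The effectors held 5 of the 9 that fell. Ifit1 fell by 1.32 (adjusted p = 0.000198), with 5.16 and 5.09 in WT LMPP, against 6.44 and 6.45 in WT LSK FLT3-. Isg20 had 6.60 and 6.50 in WT LMPP, against 7.76 and 7.84 in WT LSK FLT3-, and fell by 1.25 (SE 0.17, adjusted p = 0.00102). Cmpk2 and Rsad2, the neighbours on chromosome 12, fell by 1.08 (adjusted p = 0.00106) and 0.76 (adjusted p = 0.00655). In Cmpk2 the WT LSK FLT3- arrays read 7.31 and 7.02, and in Rsad2 7.23 and 7.19. A second and much dimmer probe set of Cmpk2 passed in the opposite direction, and neither neighbour passed when a gene's probe sets were averaged (differences of -0.27 for Cmpk2 and -0.28 for Rsad2). Samd9l had 8.47 and 8.59 in WT LMPP, against 9.11 and 8.86 in WT LSK FLT3-, and fell by 0.45 (adjusted p = 0.0372). Its call was lost with the replicate block (adjusted p = 0.0525) and after quantile normalization (difference -0.14, adjusted p = 0.551).

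Ifih1 was the 1 sensor that fell: it had 8.07 and 8.30 in WT LMPP, against 9.32 and 9.26 in WT LSK FLT3-, and fell by 1.10 (adjusted p = 0.000759). Of the guanosine triphosphatases Gbp2 fell by 1.06 (adjusted p = 0.000831), with 7.70 and 7.88 in WT LMPP and 8.92 and 8.78 in WT LSK FLT3-. Irgm1 fell by 0.44 (adjusted p = 0.0454). That call was lost with the replicate block (adjusted p = 0.0607) and after quantile normalization (difference -0.11, adjusted p = 0.657). Lgals3bp had 7.17 and 7.07 in WT LMPP, against 8.09 and 7.81 in WT LSK FLT3-, and fell by 0.83 (adjusted p = 0.00294).

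Ifi27l2a and Ifit3 went the other way. Ifi27l2a had 6.64 and 6.46 in WT LMPP, against 5.32 and 5.27 in WT LSK FLT3-, and rose by 1.25 (SE 0.13, 2.39-fold, adjusted p = 0.000372). Ifit3 had 5.09 and 4.97 in WT LMPP, against 4.01 and 4.27 in WT LSK FLT3-, and rose by 0.89 (adjusted p = 0.00243), while its cluster neighbour Ifit2, at 7.57 and 7.72 in WT LSK FLT3-, was not called (difference -0.31, adjusted p = 0.0976). The 4 transcription factors all had differences above 0, between 0.24 and 0.32, and none passed. All 5 triphosphatases had differences below 0.

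Ifnar1 fell by 0.83 (adjusted p = 0.0106), Jak2 by 0.67 (adjusted p = 0.00585) and Jak1 by 0.63 (adjusted p = 0.00812) in WT LMPP against WT LSK FLT3-, whereas Ifnar2 rose by 0.49 (adjusted p = 0.0236). Irf8, a factor of the dendritic and monocyte lineages, rose by 1.93 (3.81-fold, adjusted p = 4.25e-05). Tlr7, Tlr3 and Sting1, from the list of sensing genes, rose by 1.83, 1.81 and 1.39. Cxcl9 rose by 2.02 (adjusted p = 4.07e-05), and Parp12 fell by 1.19 (adjusted p = 0.00065). Over all the pathway lists 14 of 101 genes rose and 27 fell, where 10.4% and 23.7% of all genes did, so the lists' shares were near those of all genes. In the same comparison 7 of 10 neutrophil genes rose, 6 of 8 genes of conventional dendritic cells rose and 5 of 7 erythroid and megakaryocyte genes fell. The 6 dendritic genes include Flt3, whose rise was set by the sorting gates, and Xcr1, which lay below the array medians in all 3 groups. Of 6 plasma cell genes 3 fell, among them Igha by 5.79, and their summed linear intensity was 960 to 1030 in WT LMPP, against 2758 to 2812 in WT LSK FLT3-. The part of these markers was not tested.

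**Figure D4:**
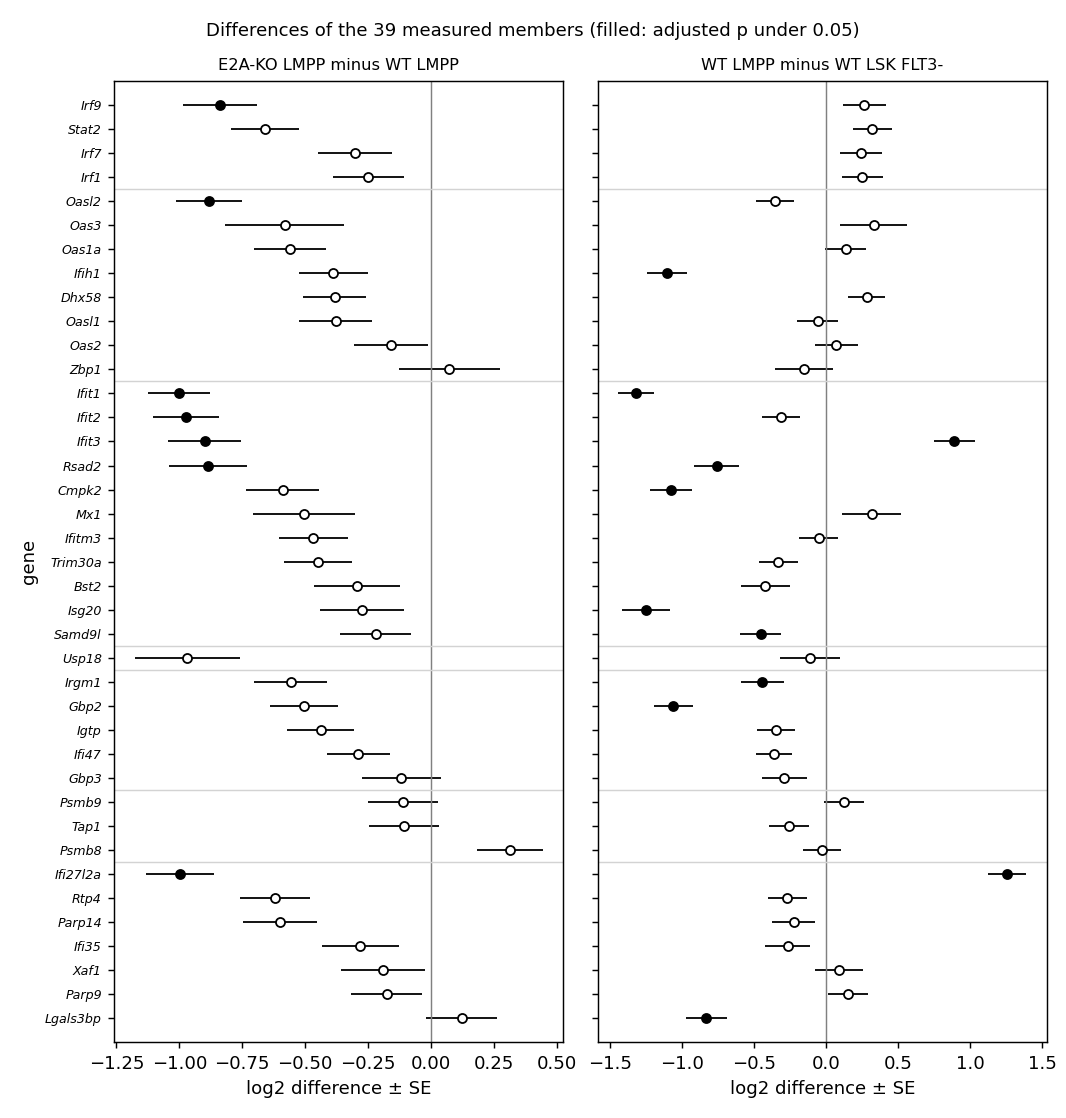
Log2 difference (horizontal axis) with its standard error (bars) of each of the 39 measured members (rows, ordered by role) in E2A-KO LMPP minus WT LMPP and WT LMPP minus WT LSK FLT3-, with filled points where the adjusted p was under 0.05. Filled points number 7 and 11 in that order of panels.

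Set against WT LSK FLT3-, E2A-KO LMPP had 23 of the 39 members lower (59.0%), where 26.5% of all genes fell, and none higher, where 11.0% of all genes rose. At an unadjusted p under 0.05 there were 26 lower (31.2% of all genes) and still none higher (16.4% of all genes). These counts use 1 probe set per gene, and dimmer probe sets of Cmpk2, Zbp1 and Tap1 passed in the higher direction. The median was -0.55 over the members (range -2.32 to 0.29) and -0.02 over all genes. Among the brighter genes 45.4% fell, against 24 of 38 members, and the medians were -0.33 over those genes and -0.56 over the members. Markers of other cell types moved here too: 6 of 10 neutrophil genes, 5 of 7 erythroid and megakaryocyte genes and 3 of 6 plasma cell genes fell, and 5 of 8 genes of conventional dendritic cells rose. Flt3, whose rise was set by the sorting gates, is again among those 5. The summed linear intensity of the plasma cell genes was 914 to 925 in E2A-KO LMPP, against 2758 to 2812 in WT LSK FLT3-, and Igha, an antibody heavy chain, fell by 5.59. Their part was not tested. This comparison shares its arrays with the other 2, so it is no independent evidence for either of them.

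By role, 9 of 11 effectors, 4 of 8 sensors, 4 of 5 triphosphatases and Usp18 fell, together with Irf9 among the factors and 4 of the 7 remaining members. Ifit1 had the largest difference, -2.32 (SE 0.12, 4.98-fold lower, adjusted p = 1.19e-05), followed by Cmpk2 at -1.67 (adjusted p = 0.000121), Rsad2 at -1.64 (adjusted p = 0.000169), Gbp2 at -1.56 (adjusted p = 0.000113), Isg20 at -1.52 and Ifih1 at -1.49. Usp18 averaged 4.73 ± 0.30 in E2A-KO LMPP, against 5.80 ± 0.14 in WT LSK FLT3- (SD, n = 2 each), and fell by 1.08 (adjusted p = 0.00466). Ifi27l2a and Ifit3 were not called here: the E2A-KO LMPP and WT LSK FLT3- values of Ifit3 overlapped (difference -0.01, adjusted p = 0.973), and Ifi27l2a differed by 0.26 (adjusted p = 0.16). Oas1a fell by 0.42 (adjusted p = 0.0459), a call that turned to a difference of 0.01 after quantile normalization. Under that normalization 13 members fell and 2 rose, with a median of -0.28.

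**Figure D5:**
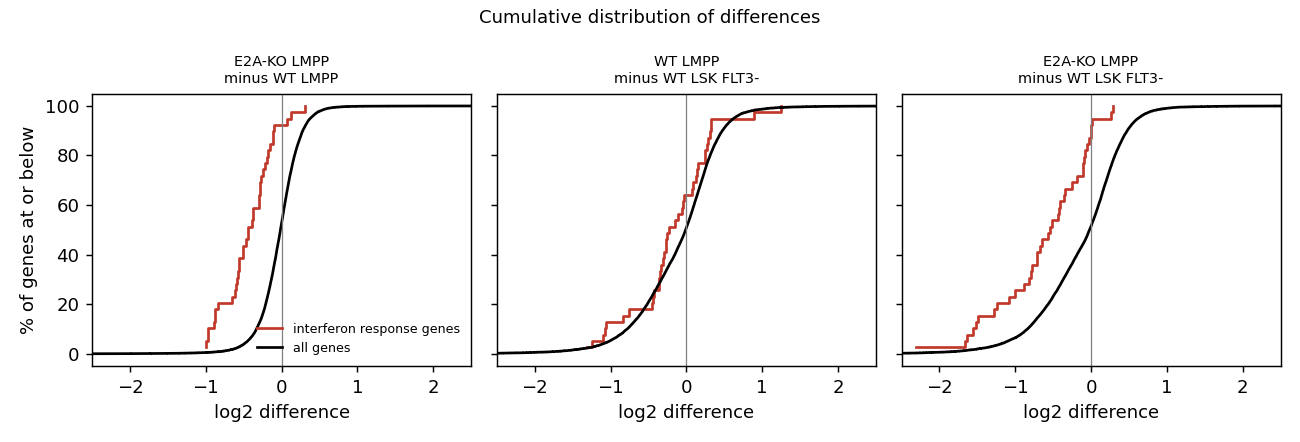
Share of genes (vertical axis, percent) at or below a given log2 difference (horizontal axis) for the measured members and for all genes, in the 3 comparisons. The members' curve lies left of the curve of all genes in E2A-KO LMPP minus WT LMPP, where the medians are -0.44 and -0.02.

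Ordered by group mean, E2A-KO LMPP was the lowest group in 33 of the 39 members, WT LMPP in 3 and WT LSK FLT3- in 3. WT LSK FLT3- was the highest group in 24, WT LMPP in 14 and E2A-KO LMPP in 1, Psmb8. Ifit1, Rsad2, Cmpk2, Ifih1 and Gbp2 were lowest in E2A-KO LMPP, intermediate in WT LMPP and highest in WT LSK FLT3-, with no overlap between neighbouring groups. The same order without overlap was seen in Ifit2, Oasl2, Bst2, Parp14, Rtp4, Trim30a, Ifi35, Samd9l, Igtp, Irgm1 and Ifi47. No share of all genes is given for this order or for the lowest and highest groups. These counts therefore cannot be set against all genes. Both Ifi27l2a and Ifit3 peaked in WT LMPP. The median over the 39 members on each array was 7.21 and 7.12 in E2A-KO LMPP, 7.26 and 7.41 in WT LMPP and 7.76 and 7.84 in WT LSK FLT3-. The groups did not overlap in it, nor did they in the median over all genes, which was 4.85 and 4.84 in E2A-KO LMPP, 4.86 and 4.87 in WT LMPP and 4.95 and 4.97 in WT LSK FLT3-.

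Members with several probe sets did not always agree among themselves. Of the 39 members 13 had more than 1, which gave 18 further probe sets, and 8 of the 18 had the opposite sign to the one used in E2A-KO LMPP against WT LMPP, none of them past the threshold. In WT LMPP against WT LSK FLT3- 10 of the 18 had the opposite sign, 1 of them past the threshold (Cmpk2). In E2A-KO LMPP against WT LSK FLT3- 9 did, 3 of them past the threshold: Cmpk2 (0.55), Zbp1 (0.76) and Tap1 (0.44). Among the 7 called genes Rsad2 was affected, as described above. Probe sets of the same sign could differ in size. The probe set used for Xaf1 differed by -0.19 between the genotypes and by -0.10 in E2A-KO LMPP against WT LSK FLT3-. A second one, nearly as bright, differed by -0.72 (adjusted p = 0.157) and -0.94 (adjusted p = 0.00903), in a limma fit of all probe sets. Shared position was common as well, since 8 members lie on chromosome 11 and 6 pairs are neighbours with no protein-coding gene between. Members may therefore not be independent of each other, but whether position ties their values together was not tested.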

How the data were processed

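Linear RMA intensity values of 45101 probe sets on 6 arrays (3 groups of 2) were taken as deposited; RMA is named, per the submitters' processing notes, with no version, and nothing states if the arrays were normalized together. Per the labels' protocols, RNA was amplified in 2 rounds before hybridisation, which favours 3′ ends. Symbols came from the platform annotation (34958 probe sets with 1 symbol, 932 with several, 9211 with none). Values ran from 4.23 to 25594 and were converted to log2, with the probe set of highest mean kept per gene. limma 3.58.1 in R 4.3.3 fitted 1 mean per group (3 residual and 5.8 prior degrees of freedom), with two-sided tests, eBayes and Benjamini-Hochberg adjustment over 18194 genes, and was tested on simulated data. The number of arrays limits the precision. Members and lists were chosen with earlier results of these data known. Values on every array are given for the transcription factors, all members called between genotypes and the 8 largest calls in each direction between the wild-type fractions, and up to 4 genes are named per pathway list. Alternatives were the replicate block, the arrays used, the dim-gene filter, probe set averaging, normalization, variance model, thresholds and leaving out arrays. Some listed genes were not analysed here.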

Additional observations from a re-analysis of the deposited data

How the results depend on the processing

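Between the genotypes, 7 members fell, and 2 did with the 4 arrays of the comparison alone, 16 with a variance trend and robust fit, 1 with a 2-fold minimum and 1 to 5 with 1 array left out. The 250 genes called in all became 89, 548 and 123 under the first 3 of these, 508 at an adjusted p under 0.1 and 89 to 164 with 1 array left out. The members' median of -0.44 was -0.39 with the mean of all probe sets and -0.48 to -0.39 with 1 array left out. Dhx58 (0.085) and Tap1 (0.088), neither called, turned with the mean of all probe sets; with 1 array left out Zbp1 (-0.17 to 0.31), Tap1 (-0.24 to 0.032), Psmb9 (-0.24 to 0.018) and Gbp3 (-0.30 to 0.065) did.

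Between the wild-type fractions, quantile normalization gave 7 members higher, 5 lower, 3496 genes called and a median of 0.074, with Ifit2 at 0.060 and Oasl2 at 0.049. Median centring gave 15 lower and a median of -0.33, an adjusted p under 0.1 gave 15 lower, the mean of all probe sets a median of -0.063, and a 2-fold minimum 1 higher, 5 lower and 1214 genes. Leaving out 1 array gave 2370 to 6410 genes and medians of -0.25 to -0.17. In the comparison of E2A-KO LMPP with WT LSK FLT3-, quantile normalization gave 2 higher, 13 lower, 3617 genes and a median of -0.28, with Irf7 at 0.11 and Oas1a at 0.013; median centring gave a median of -0.68 and Irf1 at -0.13; the trend and robust fit gave 1 higher; a 2-fold minimum gave 9 lower and 1358 genes. Leaving out 1 array gave 2944 to 7515 genes and medians of -0.57 to -0.52, and turned Ifit3 (-0.13 to 0.12), Irf7 (-0.21 to 0.089) and Irf1 (-0.12 to 0.13), none of them called. Median centring moved the median of all genes to -0.12 and -0.16 in these comparisons. The causes were not tested.

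Replicate numbers did not pair the arrays (r of deviations 0.02, -0.04 and -0.02). With the replicate block 7 members fell between the genotypes, but Irf9 was lost (adjusted p = 0.0525) and Usp18 gained (adjusted p = 0.0238), and 7 fell between the wild-type fractions and 21 in E2A-KO LMPP against WT LSK FLT3-.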
